A study of Arabidopsis thaliana with 6 samples.

Results

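The genes described here encode proteins that act on the plant cell wall and belong to 3 families: the expansins, the xyloglucan endotransglucosylase/hydrolases (XTH) and the trichome birefringence-like proteins (TBL). Members were the microarray probe sets with 1 listed gene whose annotation symbol begins with EXPA, EXPB, EXLA, EXLB, XTH or TBL and a number. This rule gave 49 of the 13350 genes named by such probe sets, of which 18 were expansins (10 EXPA, 4 EXPB, 3 EXLA and 1 EXLB), 9 were XTH and 22 were TBL. The gene table lists 34 expansins, 30 XTH and 41 TBL under such symbols, and those without a probe set of their own were not analysed here. Each of the 49 genes had a single probe set, and all 49 were found in the gene table.

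Leaf RNA of Arabidopsis thaliana was hybridised to 6 Affymetrix arrays, 3 of the mutant pam48, also called mterf6-1, and 3 of the wild type, both in the accession Col-0. Both genotypes grew in soil under greenhouse light of 120 µmol photons, in days of 16 h light and 8 h darkness, and gave leaves of equal age at the stage of 8 leaves. The second name refers to MTERF6, one of the mTERF proteins of plastids and mitochondria; no probe set with 1 gene was listed for it, so its level was not analysed. The mutant is represented by 1 allele, and the labels do not say how many plants went into an array. The labels call the replicates biological without naming separate cultivations. The p-values set a difference against the spread between arrays, and whether that spread includes variation between cultivations is not known.

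The plant cell wall is a network of cellulose microfibrils tied together by hemicelluloses such as xyloglucan and embedded in pectin. Expansins loosen this network without cutting its polymers, and XTH enzymes cut xyloglucan chains and join them to others or to water, so that both are known for their part in the enlargement of growing leaf cells. TBL proteins attach acetyl groups to wall polysaccharides, and several of them are known O-acetyltransferases of xylan, xyloglucan or mannan. The EXLA and EXLB proteins resemble expansins in sequence, and wall loosening has not been established for them.

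As a check of the tissue, RCA, the Rubisco activase gene of green cells and the 1 measured of 7 leaf mesophyll markers, lay between 14.15 and 14.37 in pam48 and between 14.30 and 14.33 in wild type, on the log2 scale. The guard cell gene FMA, 1 of 3 markers, lay between 5.47 and 5.55 in pam48 and between 5.70 and 6.08 in wild type. The shoot apex gene CLV3, also 1 of 3, lay between 3.20 and 3.34 in pam48 and between 3.45 and 3.70 in wild type. The root gene PYK10, also 1 of 3, lay between 5.56 and 9.74 in pam48 and between 5.19 and 8.51 in wild type. FMA and CLV3 thus did not overlap between the genotypes, which was also so for 20.5% of all probe sets. CLV3 was dim, at the 9.63 percentile of all wild-type means, and PYK10 varied widely within both genotypes. No listed epidermis, trichome, phloem, xylem or flower marker had a probe set with 1 gene. The part of cell composition in the results was not tested, and in whole-leaf RNA fewer cells of a type and less RNA per cell cannot be told apart. The 3′ minus 5′ difference of the actin control, a measure of RNA integrity, lay between 2.70 and 3.67 in pam48 and between 2.46 and 3.23 in wild type, and was widest on pam48 replicate 2.

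Most members of all 3 families had lower means in pam48, and none had a difference that passed the test across all probe sets. Array values and levels are on the log2 RMA scale, and differences are given as pam48 minus wild type of mean log2 values, with the standard error of the limma fit and n = 3 per genotype. Of the 49 members 44 had a negative difference (89.8%), against 55.3% of all tested probe sets, and the median was −0.20 against −0.03. Limma called 0 of the 49 at an adjusted p under 0.05, where it called 0.778% of all probe sets, 0.18% as lower and 0.598% as higher in pam48. The lowest adjusted p among the members was 0.101. An unadjusted p under 0.05 was reached by 8 members (16.3%), close to the 13.5% of all probe sets. All 8 were lower in pam48 and 0 were higher, where 6.67% of all probe sets were lower and 6.79% higher at that p. The genotypes did not overlap in 11 members, or 22.4%, and in 20.5% of all probe sets. All 11 were lower in pam48, where 11.4% of all probe sets were lower and 9.14% higher without overlap. Members share arrays and vary together, so these counts describe the 49 genes and are not independent observations.

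Arrays of the 2 genotypes that carry the same replicate number varied together, only weakly over all probe sets for number 2, and were treated as pairs. The labels do not state such pairs, which were taken from these same values. With the number as a block, limma called 2 members, the expansin genes EXPB1 and EXPA9, both lower in pam48, where it called 1.81% of all probe sets and 0.761% as lower. In that fit 15 members were at an unadjusted p under 0.05, and 17.4% of all probe sets were. All 15 were lower (7 expansins, 3 XTH and 5 TBL), against 8.87% of all probe sets. Lower in pam48 in each of the 3 pairs were 24 members (49.0%), against 23.3% of all probe sets, and 0 members were higher in each pair, against 17.2%. By family these were 10 of 18 expansins, 5 of 9 XTH and 9 of 22 TBL.

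**Figure D1:**
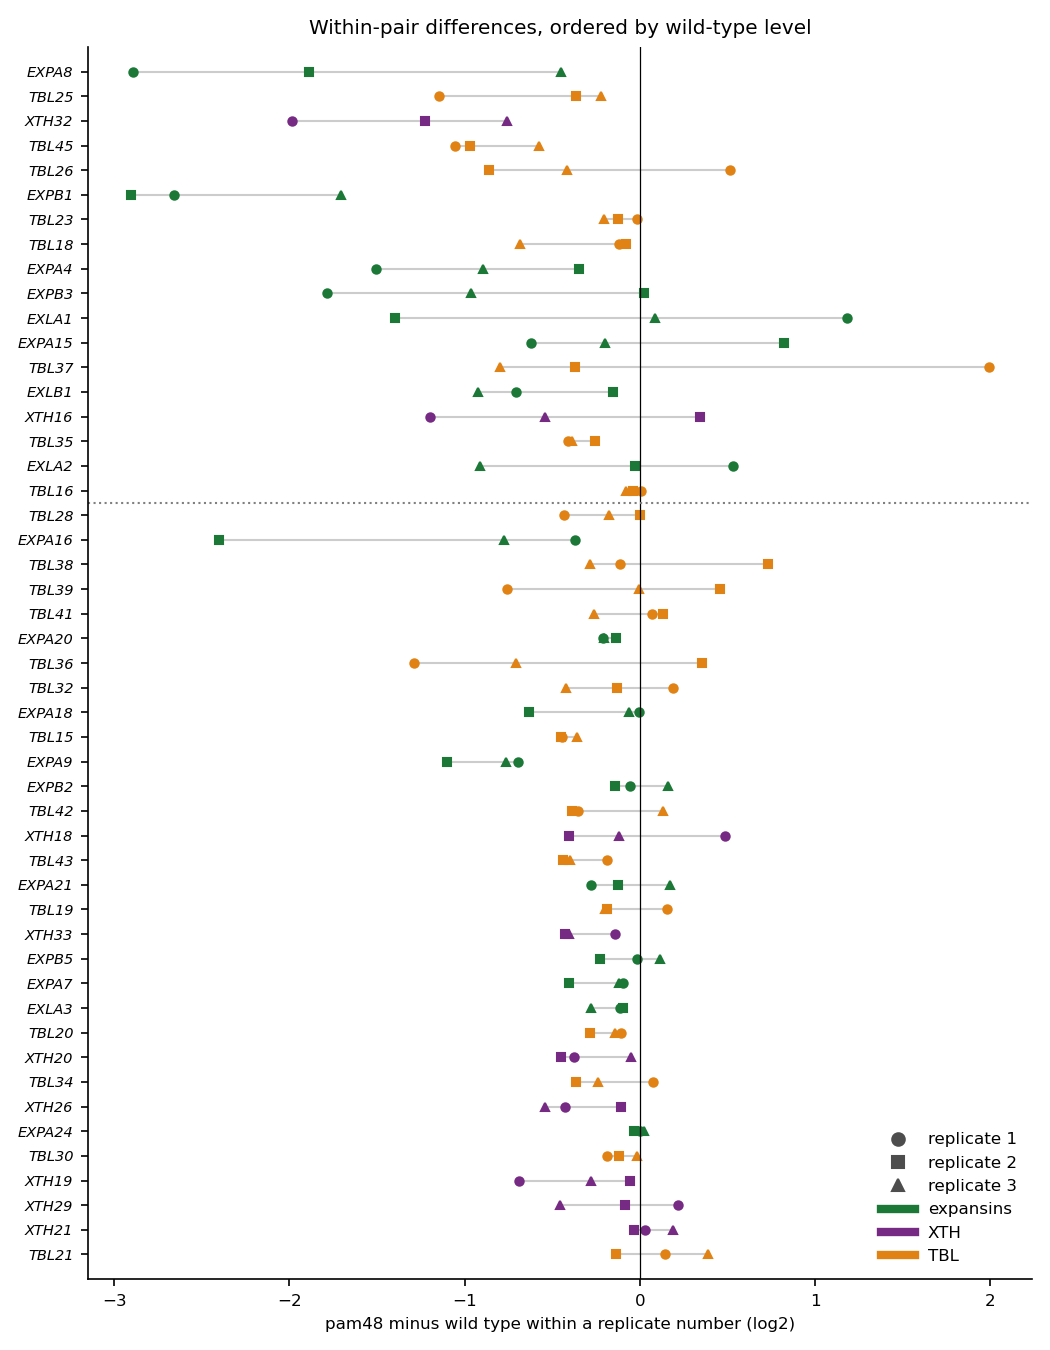
Each point is the difference pam48 minus wild type on the log2 scale (x axis) between the arrays of 1 replicate number, for each of the 49 members (y axis), ordered by wild-type mean with the highest on top; symbols mark the replicate number, colours the family, and the dotted line the median wild-type mean of all tested probe sets. All 3 points lie left of 0 for 24 members, and all 3 right of 0 for none.

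Among the expansins, the widest differences belonged to alpha and beta expansins, most of them with wild-type signals above the median. EXPB1, a beta expansin (AT2G20750), had 5.33, 6.04 and 7.37 in pam48 replicates 1 to 3, against 7.99, 8.94 and 9.08 in wild type replicates 1 to 3. Every pam48 array lay below every wild-type array, and replicate 1 was the lowest of its genotype in both. The means were 6.25 ± 1.03 in pam48 and 8.67 ± 0.59 in wild type (SD, n = 3 each). The difference was −2.42 ± 0.54, or 5.36-fold lower in pam48, with a limma adjusted p of 0.129 without the block and 0.0266 with it. When 1 array was left out from the fit without the block, the difference lay between −2.98 and −1.96 and the adjusted p between 0.0647 and 0.391.

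EXPA9 (AT5G02260), an alpha expansin, gave a signal below the median of all wild-type means. It had 4.19, 4.31 and 4.01 in pam48, against 4.88, 5.41 and 4.77 in wild type, and the genotypes did not overlap. The difference was −0.85 ± 0.19, or 1.81-fold lower in pam48, with a limma adjusted p of 0.127 without the block and 0.0493 with it. Both calls made with the block depended on which pairs entered. Without replicate 2 of both genotypes the adjusted p was 0.204 for EXPB1 and 0.257 for EXPA9, and without replicate 3 it was 0.199 and 0.236, while both stayed called without replicate 1.

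EXPA4 (AT2G39700), an alpha expansin, had 6.96, 7.58 and 6.98 in pam48, against 8.47, 7.92 and 7.87 in wild type. The genotypes did not overlap, and the difference was −0.92 ± 0.23 (unadjusted p = 0.0066, limma adjusted p = 0.167). The expansin-like gene EXLB1 (AT4G17030) had 6.81, 7.30 and 6.86 in pam48, against 7.52, 7.45 and 7.78 in wild type. Its highest pam48 array lay just under its lowest wild-type array, and the difference was −0.59 ± 0.17 (unadjusted p = 0.0110, limma adjusted p = 0.206). With the block the adjusted p was 0.128 for EXPA4 and 0.174 for EXLB1, so neither was called in either fit.

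EXPA8 (AT2G40610), an alpha expansin had the highest wild-type signal of the members and the second widest difference, with a wide spread between arrays. Its values were 7.13, 9.10 and 10.82 in pam48, against 10.02, 10.99 and 11.27 in wild type. The genotypes overlapped, since pam48 replicate 3 lay above wild type replicate 1, but within each pair the mutant was lower, with differences of −2.89, −1.89 and −0.45 in pairs 1 to 3. The difference of −1.74 ± 0.89 (limma adjusted p = 0.455) became −0.80 without pam48 replicate 1 and −2.64 without pam48 replicate 3.

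A few further expansins were singled out after their values had been seen. EXPA16, an alpha expansin, had 6.28, 4.17 and 4.71 in pam48, against 6.65, 6.57 and 5.48 in wild type, a difference of −1.18 ± 0.58. The beta expansin EXPB3 had 6.26, 7.91 and 6.91 in pam48, against 8.04, 7.88 and 7.87 in wild type, a difference of −0.91 ± 0.39. The genotypes overlapped in both genes, and neither was called, with limma adjusted p of 0.442 and 0.383. Without pam48 replicate 2 the difference of EXPA16 was −0.74, and without pam48 replicate 1 it was −1.80. For EXPB3 it was −0.53 without pam48 replicate 1.

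Of the other 11 expansins, EXPA15 had the only positive difference in the family, 0.0026. EXPA7 and EXPA18, known from root hairs, had dim probe sets in these leaves that lay below the median of all wild-type means, and EXPA7 had a difference of −0.21 ± 0.13 with no overlap, which was −0.10 without pam48 replicate 2. EXPA20 also did not overlap, with 5.60, 5.52 and 5.52 in pam48 against 5.80, 5.65 and 5.73 in wild type, a difference of −0.18 ± 0.10. This gene lies 5 protein-coding genes from MTERF6 (AT4G38160) in the gene table, and EXLA2, which overlapped, lies 26 from it. The remaining expansins, EXLA1, EXLA3, EXPA18, EXPA21, EXPA24, EXPB2 and EXPB5, were not called and overlapped between the genotypes.

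**Figure D2:**
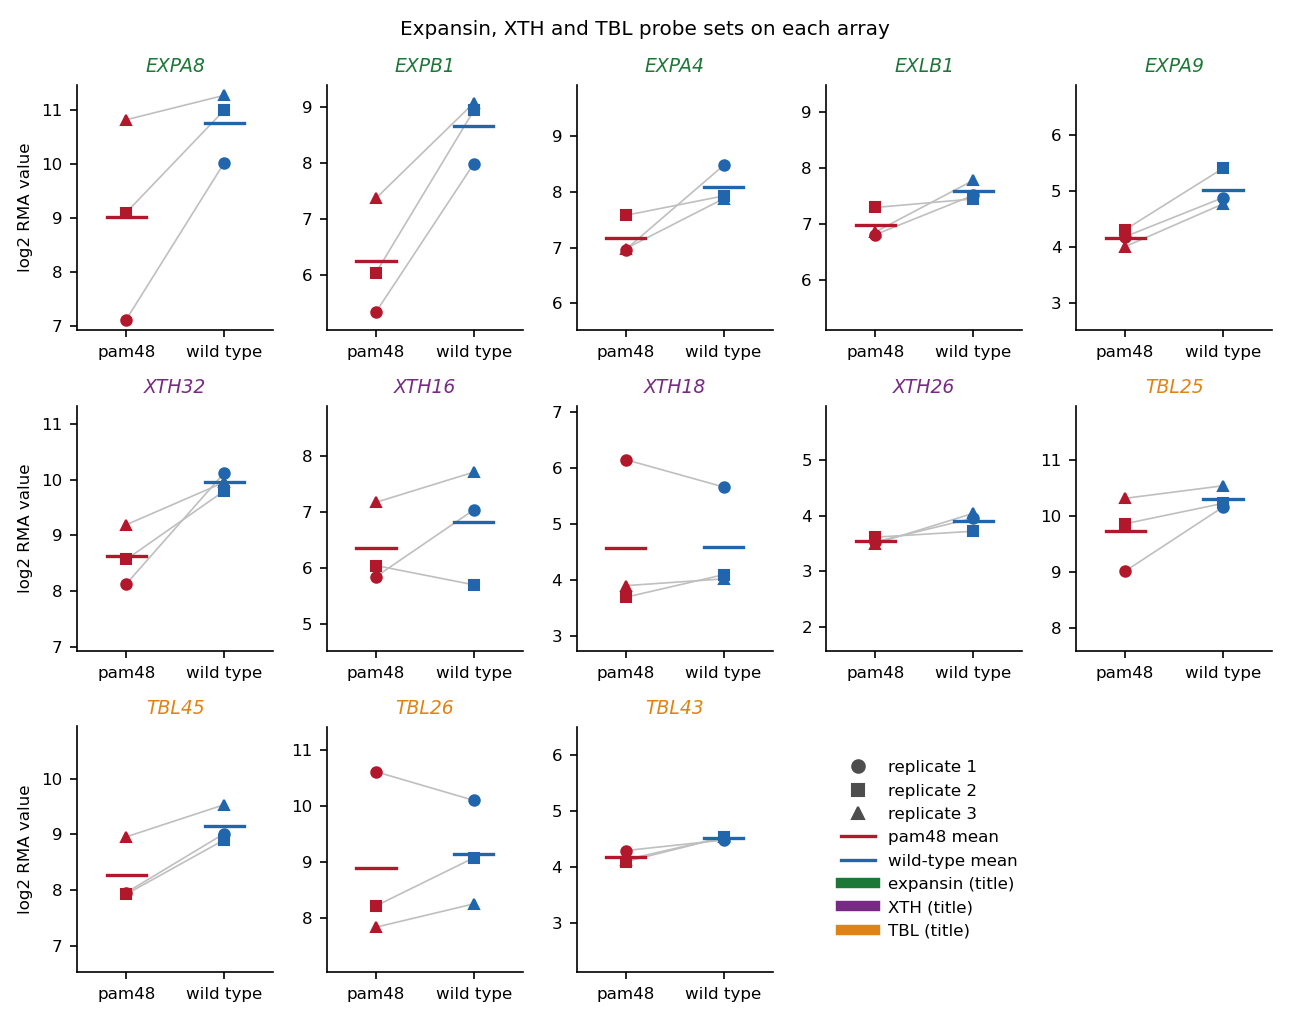
Log2 RMA values (y axis) of the 13 members chosen by the rule on unadjusted p, wild-type level and size of difference, in pam48 (left, red) and wild type (right, blue); symbols mark replicate numbers, grey lines join equal numbers and bars are means, n = 3 per genotype. All pam48 points of EXPB1, EXPA4, EXLB1, EXPA9, XTH32, XTH26 and TBL43 lie below all wild-type points, while those of XTH18 and TBL26 are spread along both columns.

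Among the XTH genes, XTH32 stood out in signal and in size of difference. XTH32 (AT2G36870), which belongs to the branch of the family that includes hydrolases, had 8.13, 8.57 and 9.19 in pam48, against 10.12, 9.80 and 9.95 in wild type. All 3 mutant arrays lay below the lowest wild-type array. The means were 8.63 ± 0.53 in pam48 and 9.96 ± 0.16 in wild type (SD, n = 3 each), a difference of −1.32 ± 0.27 or 2.50-fold lower in pam48. This gave the lowest adjusted p of the 49 members in the limma fit, 0.101, which was 0.0699 with the block and between 0.0607 and 0.352 when 1 array was left out.

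XTH26 (AT4G28850), a gene known from roots, was dim but did not overlap, with 3.53, 3.61 and 3.50 in pam48, against 3.95, 3.72 and 4.04 in wild type. Its difference was −0.36 ± 0.12 (unadjusted p = 0.0215, limma adjusted p = 0.264). XTH16 had 5.84, 6.04 and 7.17 in pam48, against 7.04, 5.70 and 7.71 in wild type, and overlapped (−0.46 ± 0.57). Its difference was −1.02 without wild type replicate 2 and −0.02 without wild type replicate 3. XTH18 had 6.15, 3.68 and 3.89 in pam48, against 5.66, 4.09 and 4.01 in wild type, so that replicate 1 was far above the others in both genotypes and the means were alike (−0.01 ± 0.75).

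The other 5 XTH genes were dim and were not called. XTH20 did not overlap between the genotypes, with 3.88, 3.61 and 4.04 in pam48 against 4.25, 4.06 and 4.09 in wild type (−0.29 ± 0.14). XTH33 overlapped at −0.32 ± 0.20 and was at an unadjusted p of 0.0435 with the block. Without pam48 replicate 2 the difference was −0.18 for XTH20 and −0.17 for XTH33, and without wild type replicate 3 it was −0.16 for XTH33. XTH19 and XTH29 had negative differences and XTH21 the 1 positive difference of the family, 0.06.

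The TBL genes were the most numerous of the members, and none of them differed by as much as 2-fold. TBL45 (AT2G30010) had 7.96, 7.93 and 8.96 in pam48, against 9.01, 8.90 and 9.53 in wild type. Pam48 replicate 3 lay between the wild-type arrays, yet the mutant was lower in each pair, with differences of −1.05, −0.97 and −0.57. The difference was −0.87 ± 0.32, or 1.82-fold lower in pam48, with a limma adjusted p of 0.305 without the block and 0.0545 with it. TBL43 (AT2G30900) was dim and tight, with 4.29, 4.09 and 4.13 in pam48, against 4.48, 4.53 and 4.53 in wild type, no overlap, and a difference of −0.34 ± 0.10 (unadjusted p = 0.0133, limma adjusted p = 0.222).

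TBL23, TBL25 and TBL26 are known as O-acetyltransferases of mannan, and their differences were unequal. TBL25 had 9.01, 9.86 and 10.31 in pam48, against 10.16, 10.22 and 10.54 in wild type, lower in each pair (−0.58 ± 0.32), and the difference was −0.22 without pam48 replicate 1 and −0.87 without pam48 replicate 3. TBL26 had 10.61, 8.21 and 7.83 in pam48, against 10.10, 9.07 and 8.25 in wild type, highest on replicate 1 in both genotypes (−0.25 ± 0.80). None of these genes was called, and the limma adjusted p of TBL25 and TBL26 were 0.499 and 0.919.

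TBL28, TBL30, TBL32, TBL34 and TBL35 are counted among the acetyltransferases of xylan, and all of them had negative differences and no call. TBL35 differed by −0.35 ± 0.18 and was lower in each pair, with differences of −0.41, −0.25 and −0.38. Its difference was −0.21 without pam48 replicate 1 and −0.23 without wild type replicate 3. TBL30 was dim, at the 13.9 percentile of all wild-type means, and its genotypes lay only just apart. It had 3.63, 3.64 and 3.67 in pam48 against 3.81, 3.76 and 3.69 in wild type, at a difference of −0.11 ± 0.09 (limma unadjusted p = 0.289). The probe set of TBL32 is of a kind shared between similar transcripts, so its value may hold RNA of another gene.

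Of the other TBL genes, TBL15 differed by −0.42 ± 0.18 and was lower in each pair, at −0.45, −0.45 and −0.36, and its difference was −0.27 without pam48 replicate 1. TBL37 had the largest positive difference of all members, 0.28 ± 0.87, with 1 array far above the others. It had 10.04, 6.73 and 6.94 in pam48, against 8.05, 7.10 and 7.74 in wild type, and the difference was −0.79 without pam48 replicate 1. TBL38 and TBL21 were also above 0, and TBL16, TBL18 to TBL20, TBL36, TBL39, TBL41 and TBL42 below it, with none of them called.

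By family, the median difference was −0.20 for the expansins, −0.32 for the XTH genes and −0.18 for the TBL genes, against −0.03 for all tested probe sets. Negative differences were found in 17 of 18 expansins, 8 of 9 XTH and 19 of 22 TBL, against 55.3% of all probe sets. An unadjusted p under 0.05 was reached by 4 expansins (22.2%), 2 XTH (22.2%) and 2 TBL (9.09%), all lower. Of all probe sets 13.5% reached that p, and 6.67% did so as lower in pam48. At least 2-fold lower in pam48 were 3 expansins (EXPB1, EXPA8 and EXPA16), 1 XTH (XTH32) and 0 TBL, and 0 members were at least 2-fold higher, against 0.827% of all probe sets lower and 1.45% higher by that much. The expansin median depended on which arrays were used, with −0.43 without wild type replicate 2 and −0.41 without pam48 replicate 1, and the XTH median was −0.18 without pam48 replicate 2. Whether the families differ from each other was not tested.

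The mean of all expansins was 5.77, 5.59 and 5.94 on pam48 replicates 1 to 3, against 6.34, 6.21 and 6.37 on wild type replicates 1 to 3. For TBL it was 6.06, 5.94 and 5.94 in pam48, against 6.22, 6.12 and 6.21 in wild type, and for XTH 4.69, 4.43 and 4.77 in pam48, against 5.14, 4.70 and 5.10 in wild type. The genotypes were apart in the expansin and TBL means, while the XTH mean of wild type replicate 2 lay below that of pam48 replicate 3. RMA sets probe signals to a common distribution before they are summarised, so these means are largely relative to the other probe sets of an array. The probe-set values were not fully alike in distribution, with array medians between 6.38 and 6.55.

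**Figure D3:**
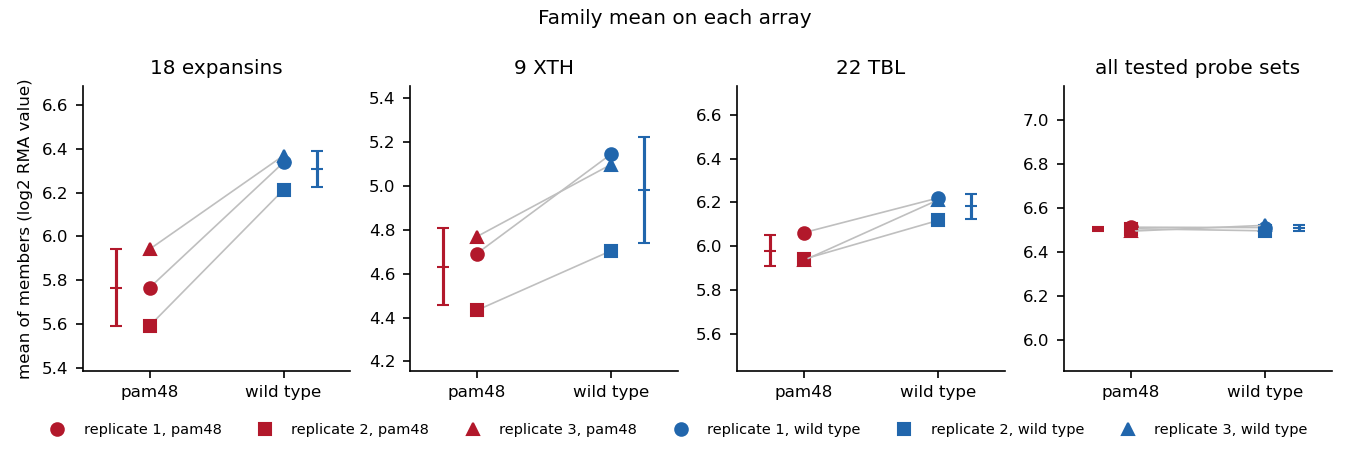
Mean log2 RMA value of the members of each family and of all tested probe sets (y axis, each panel spanning an equal range) on each pam48 array (left, red) and wild-type array (right, blue); grey lines join equal replicate numbers and bars show mean ± SD, n = 3. The expansin means lie between 5.59 and 5.94 in pam48, below the 6.21 to 6.37 of wild type. The mean of all probe sets is nearly level.

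With members divided at the median level, differences were wider in the class of higher wild-type signal, as was the spread between arrays. The dividing line was the median wild-type mean of all tested probe sets, 6.40, and since probe sets differ in brightness for equal amounts of RNA, the classes are of signal and not of RNA amount. The 18 members above the line had a median difference of −0.41, where all probe sets above it had −0.01. The 31 members at or below the line had a median of −0.18, where all such probe sets had −0.04. The median within-genotype SD was 0.48 for the members above the line and 0.20 for those below it. The differences of all probe sets were also wider at high signal. Their 5th percentile was −0.17 in the dimmest of 20 classes by level and −0.76 in the brightest. Whether the wider differences of the members exceed this wider spread was not tested. Negative differences were about as frequent in both classes of members, 16 of 18 and 28 of 31, so these differed in size and not in sign. Of all probe sets 51.3% above the line and 59.4% below it were negative. An unadjusted p under 0.05 was reached by 5 of the 18 (27.8%, all lower), where 8.66% of all probe sets above the line were lower at that p, and 3 of the 31 (9.68%, all lower), where 4.69% were.

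In the expansins the medians were −0.75 for 8 members above the line and −0.17 for 10 below it. For XTH they were −0.89 for XTH32 and XTH16, the only ones above the line, and −0.29 for 7 others, and for TBL −0.27 for 8 and −0.15 for 14. On single arrays the expansins above the line averaged 7.04, 7.17 and 7.68 in pam48, against 8.10, 7.91 and 8.42 in wild type, without overlap. Across the 49 members the wild-type mean and the difference had a Spearman correlation of −0.42, a description across genes that share the same 6 arrays, while over all tested probe sets it was −0.01.

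The wild-type mean is also part of the difference, which by itself tilts such a relation downwards, so levels were also taken from other arrays. With the level taken as the pam48 mean, which tilts the other way, the medians were −0.44 for 14 members above the line and −0.18 for 35 below it, and the correlation was −0.27. With the mean of the 6 arrays they were −0.41 for 18 and −0.18 for 31, and the correlation was −0.33. With the line at the 75th percentile of wild-type means, 8 members lay above it with a median of −0.72, against −0.05 for all probe sets there, and all 8 were negative, while 41 lay below it with −0.18. With the line at the 40th percentile the classes lay closer together, with −0.25 for 27 members above and −0.17 for 22 below, so the width of the gap depended on where the line was drawn.

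**Figure D4:**
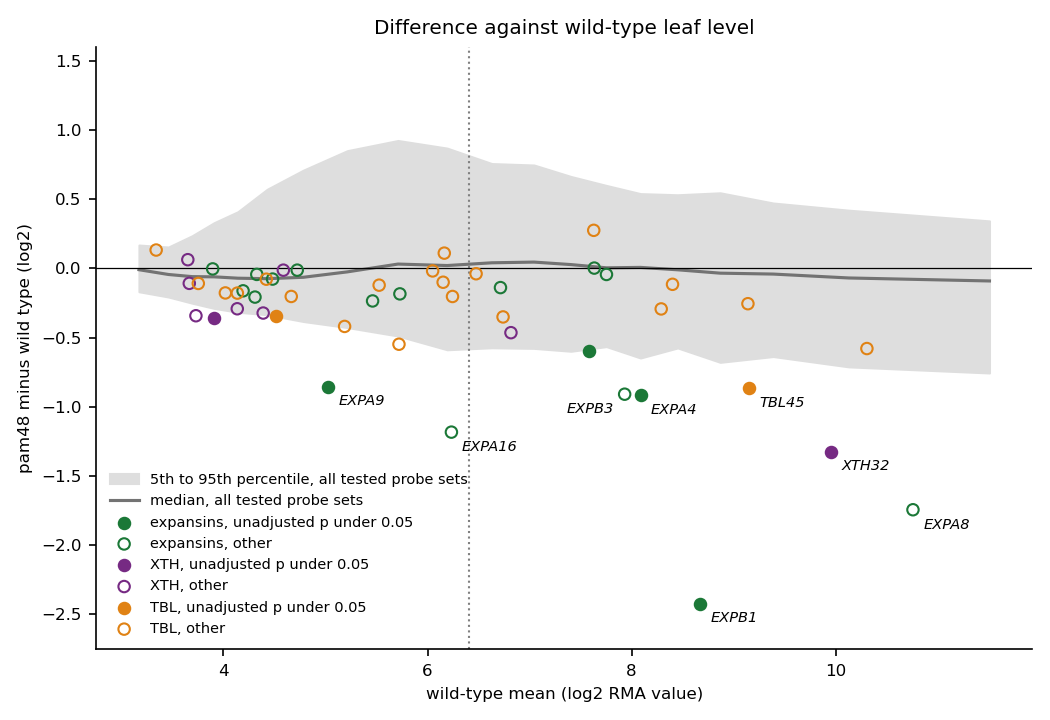
Difference pam48 minus wild type (y axis, log2) against wild-type mean (x axis, log2 RMA value) for the 49 members, coloured by family and filled at an unadjusted p under 0.05; the grey band runs from the 5th to the 95th percentile of all tested probe sets in 20 classes of equal size by level, the grey line is their median and the dotted line the median level. Below the band lie 12 members, 6 of them expansins, and above it none.

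Set against probe sets of like signal, in 20 classes of equal size, 12 of the 49 members lay under the 5th percentile of their class and 0 over the 95th. These were 6 expansins (EXPA4, EXPA8, EXPA9, EXPA16, EXPB1 and EXPB3), 3 XTH (XTH19, XTH26 and XTH32) and 3 TBL (TBL36, TBL43 and TBL45). Of the 12, 6 were above the median level and 6 below it.

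Many members varied strongly between arrays of 1 genotype. The median within-genotype SD was 0.25 for the 49 members and 0.18 for all tested probe sets, and 9 members lay past the 95th percentile of all probe sets. These were EXPA8, EXPA16, EXPB1, EXLA1, EXLA2, XTH16, XTH18, TBL26 and TBL37, of which 7 were above the median level. EXLA1 had the widest spread, with 9.20, 5.26 and 8.67 in pam48, against 8.02, 6.66 and 8.58 in wild type, so that replicate 2 was lowest in both genotypes and the difference was −0.04 ± 1.06. XTH18, TBL26 and TBL37 were highest on replicate 1 of both genotypes, whereas EXPA8, EXPB1 and TBL25 were lowest there. Over the 49 members, pam48 and wild-type arrays of equal number had correlated deviations from their own means, with coefficients of 0.70, 0.51 and 0.66 for numbers 1 to 3.

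Other genes of the wall and of auxin response, found by symbol patterns, were thinly measured, and limma called none of them without the block. Of 9 genes of cellulose and hemicellulose synthesis 2 were at an unadjusted p under 0.05, both lower, against 6.67% of all probe sets lower. The median of the 9 was −0.19 and lay between −0.35 and 0.01 when 1 array was left out. The 2 lower genes belong to the CSLC genes, whose proteins make the glucan backbone of xyloglucan, the polymer on which XTH enzymes act. CSLC5 had 6.92, 7.56 and 7.31 in pam48, against 7.77, 8.23 and 7.94 in wild type (−0.71 ± 0.20, limma adjusted p = 0.197, and 0.0567 with the block). CSLC04, named after its value was seen, had 9.10, 9.07 and 9.73 in pam48, against 9.77, 9.82 and 10.07 in wild type (−0.58 ± 0.20, limma adjusted p = 0.291). The genotypes did not overlap in either gene, while CSLC6 and CSLC12 overlapped. Of all probe sets 20.5% did not overlap, and 11.4% were lower without overlap. Positive differences were found in 4 of the 9 genes, CSLC12 (0.04) among them.

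Of 11 auxin response genes 3 were at an unadjusted p under 0.05, all lower, against 6.67% of all probe sets lower. The median was −0.03 and lay between −0.11 and 0.04 when 1 array was left out. Without the 40% dimmest probe sets only IAA18 (0.07) and IAA29 (−1.80) were left of these genes, with a median of −0.87. With the block 2 of the 11 were called lower, against 0.761% of all probe sets. IAA29, which encodes a repressor of auxin response, had 4.51, 5.60 and 6.44 in pam48, against 6.95, 7.21 and 7.80 in wild type (−1.80 ± 0.48, limma adjusted p = 0.185, and 0.0359 with the block). GH3.9, named after its value was seen, had 4.41, 4.55 and 4.97 in pam48, against 5.54, 6.09 and 6.43 in wild type (−1.38 ± 0.26, limma adjusted p = 0.0858, and 0.0266 with the block). All mutant arrays of both genes lay below all wild-type arrays. This was so for 3 of the 11 genes and for 11.4% of all probe sets. Positive differences were found in 5 of the 11, the largest in GH3.3 (0.56).

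In 3 pectin genes 1 was lower at an unadjusted p under 0.05, the pectin methylesterase gene PME61 (−0.32 ± 0.11), and the median was −0.11, which lay between −0.30 and 0.02 when 1 array was left out and was −0.26 with array weights. In 2 laccase and peroxidase genes 1 was lower at that p, LAC16 (−0.27 ± 0.11), and the median was −0.04, which lay between −0.24 and 0.08 when 1 array was left out. Of all probe sets 6.67% were lower at that p. With the block 0 of these lists' genes were called. The pattern for structural wall proteins matched only PRP39 and PRP39-2, which are named for RNA processing and not for the wall, with a median of 0.23, and PRP39-2 differed by 0.27 ± 0.25, or between 0.10 and 0.49 when 1 array was left out.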

How the data were processed

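The authors deposited log2 values for each probe set, 1 column per array, which the submitters' processing notes credit to RMA. No RMA version or genome build is given in the sources used here. The log2 scale was read from the values. Of 22810 deposited rows 64 control probe sets were left out and 22746 tested. Array medians lay between 6.38 and 6.55 and correlations between arrays between 0.952 and 0.992, so no array was a copy of another. Signal over background was not examined, and the number of arrays limits the precision.

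Genes were named from GEO's platform annotation, in which 13513 probe sets list 1 gene, 503 list several and 8730 list none; 13436 of the first kind were found in the TAIR10.1 gene table, used for names and gene order. Protein and promoter sequences were not analysed here. The difference between genotypes was fitted in R 4.3.3 with limma 3.58.1 (lmFit and eBayes), and two-sided p-values were adjusted by Benjamini-Hochberg over the 22746 probe sets, with a call at an adjusted p under 0.05. The code was tested on simulated data.

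Members and lists were chosen with earlier results of these data known. Values are printed for members at an unadjusted p under 0.05, the 3 highest wild-type means and the 2 largest differences per family, and in each other list for the called genes or the largest difference; others with values were chosen after these were seen.

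Replicates 1 to 3 exist in both genotypes. To see whether these numbers pair arrays, each array's deviations from its genotype mean were set against those of the array of equal number, with correlations of 0.53, 0.20 and 0.54. Each was above 0.1, so the numbers were taken as pairs, which the labels do not state. Limma was also run with the number as a block (the replicate block). Between arrays of unequal number the correlations lay between −0.50 and 0.11, the highest for pam48 replicate 2. For that array the limit of 0.1 thus did not separate equal from unequal numbers. The pairs were also read from the same data that the block fit uses. Other settings were quantile normalization, median centring, a filter on dim probe sets, array weights, a mean-dependent and robust prior variance (eBayes), each array left out, thresholds of 0.01 and 0.1, probe sets of several genes and other definitions of level.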

Additional observations from a re-analysis of the deposited data

How the results depend on the processing

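The fits that leave out both arrays of a number were chosen after the data were seen. With the replicate block the calls over all probe sets were 412 (239 higher, 173 lower) in place of 177 (136 and 41), 2 members were called in place of 0, and 15 in place of 8 were lower at an unadjusted p under 0.05; the paired fit also called IAA29 (−1.80) and GH3.9 (−1.38) beside EXPB1 (−2.42) and EXPA9 (−0.85), and changed no other call of a named gene. When both arrays of 1 number were left out with the block, 0 to 4 members were called. Array weights gave 351 calls (258 higher, 93 lower) and an XTH median of −0.19. An adjusted p under 0.01 gave 8 (8 higher, 0 lower) and one under 0.1 gave 424 (293 and 131), with 0 members in either. Leaving out 1 array gave 1 to 291 calls, 1 to 238 higher and 0 to 53 lower, 0 members called, 6 to 11 members lower at an unadjusted p under 0.05, and expansin medians between −0.43 and −0.13; the cause was not tested. Without the 40% dimmest probe sets 24 members remained, 5 of them lower at an unadjusted p under 0.05, and the medians were −0.75 for 10 expansins and −0.89 for 2 XTH, as dim members were left out. Means over members in place of medians were −0.35 for all members and −0.54 for expansins, and the medians above and below the level line were −0.72 and −0.18 with the line at the 75th percentile and −0.25 and −0.17 with it at the 40th. The medians of the 3 families and of both level classes stayed negative in every setting. Directions of named genes turned for XTH18 with quantile normalization (0.068) and, with array weights, for XTH16 (0.19), EXLA1 (0.37), TBL37 (−0.14) and IRX15-L (−0.19). With 1 array left out, differences spanned 0 for XTH18 (−0.80 to 0.52), TBL26 (−1.12 to 0.27), EXLA1 (−0.79 to 1.18), TBL37 (−0.79 to 0.86) and IRX15-L (−0.77 to 1.02). Averaging several probe sets of a gene and adding members by current symbol changed nothing, as no member had a second probe set and 0 were added.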

Other observations

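Neighbouring members in the gene table, with 0 protein-coding genes between them, were TBL28 and TBL30, EXLA3 and EXLA1, XTH18 and XTH19, and TBL21 and TBL19. Their differences, pam48 minus wild type, were −0.20 and −0.11, −0.16 and −0.04, −0.01 and −0.34, and 0.13 and −0.08, in that order.

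The xylan synthesis gene IRX15-L, named after its value was seen, had 8.30, 4.72 and 4.79 in pam48 replicates 1 to 3, against 6.43, 5.21 and 4.92 in wild type replicates 1 to 3. It was highest on replicate 1 of both genotypes, as were TBL26, TBL37 and XTH18, and its difference was 0.41 ± 0.99.

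Further expansin symbols stand on 2 probe sets that list several genes, which cannot be told apart there. That of EXPA22 and EXP26 had 3.66, 3.58 and 3.74 in pam48, against 3.63, 3.61 and 3.86 in wild type. That of EXPA23 and EXPA25 had 3.74, 3.72 and 3.96 in pam48, against 3.82, 3.65 and 3.81 in wild type. Both were dim, at the 12.6 and 14.0 percentile of all wild-type means, and neither was called by limma (−0.04 ± 0.11 and 0.05 ± 0.12).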
